A study of Homo sapiens with 42 samples.

Results

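Replication-dependent histone genes are described here across acute myeloid leukaemia cells treated with a menin inhibitor, a MEK inhibitor or both. The genes are the rows of the deposited count table whose symbol begins with HIST1H, HIST2H or HIST3H and does not end in the pseudogene suffix P or PS. This gave 73 of 58869 genes, and 16 rows with such a suffix were left out. By symbol, 6 of the 73 genes are of linker histone H1, 17 of H2A, 22 of H2B, 14 of H3 and 14 of H4. The annotation has 69 as protein coding and 4 H2B genes without a suffix as pseudogenes (HIST2H2BA, HIST2H2BB, HIST2H2BD and HIST3H2BA), and these 4 were kept. Of the 73, 55 lie in the HIST1 cluster on chromosome 6, 14 in the HIST2 cluster and 4 in the HIST3 cluster, both on chromosome 1. RNA sequencing counts came from OCI-AML3, a leukaemia cell line with mutant NPM1 (labelled NPM1c+), and from NOMO1, a line with a KMT2A rearrangement (KMT2A-r). Each line had 7 groups of 3 libraries, 42 libraries in all. The groups were the combination of VTP-50469 and selumetinib at day 3 and at day 6, VTP-50469 alone at day 3 and at day 6, selumetinib alone, and DMSO at day 3 and at day 6, with each drug at 100 nM. The sample titles write the menin inhibitor as VTP-50649 and other label fields as VTP-50469, the form used here. VTP-50469 blocks the binding of menin to KMT2A, and selumetinib inhibits MEK, the kinase that activates ERK. The labels contradict each other on the time of selumetinib alone (1 day in most fields, day 3 in the titles of replicates 2 and 3), so its time is uncertain, and no DMSO group of 1 day is labelled. It was set against DMSO day 3 in OCI-AML3. All NOMO1 treatments, those of day 3 included, were set against DMSO day 6.

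Histone proteins package DNA: H2A, H2B, H3 and H4 form the core of the nucleosome, and H1 binds the linker DNA where it enters and leaves. Most mRNA of these genes is made in S phase, when new DNA needs new histones, and ends in a short stem-loop bound by SLBP rather than in a poly(A) tail. Many of the genes carry a polyadenylation signal downstream of the stem-loop, and polyadenylated histone transcripts are known from cells that leave the cycle and differentiate. The libraries here were made from polyadenylated RNA. How much RNA without a tail they also held was not tested for histone transcripts, so a level below is that in these libraries.

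The stem-loops of 8 genes are shown because these genes had some of the highest levels or largest changes below, and their annotated transcripts run on past the stem-loop. In each line the 16 stem-loop letters are in capitals, read 5′ to 3′ from transcripts of GENCODE 29 on GRCh38.
HIST1H2AC: cccaaaGGCTCTTTTCAGAGCCccccta
HIST1H2AG: accaacGGCTCTTTTCAGGGCCacccac
HIST3H2A: cataaaGGCTCTTTTCAGAGCCacctac
HIST1H2BD: cccaaaGGCTCTTTTAAGAGCCacgcat
HIST2H2BE: tccaaaGGCTCTTTTCAGAGCCacccac
HIST1H3H: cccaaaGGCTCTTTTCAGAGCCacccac
HIST1H4H: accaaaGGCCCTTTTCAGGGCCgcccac
HIST1H4I: taaaaaGGCCCTTTTTAGGGCCcctaag
They lie at chr6:26124663-26124690 (HIST1H2AC, + strand), chr6:27133509-27133536 (HIST1H2AG, +), chr1:228457363-228457390 (HIST3H2A, −), chr6:26158581-26158608 (HIST1H2BD, +), chr1:149886182-149886209 (HIST2H2BE, −), chr6:27810510-27810537 (HIST1H3H, +), chr6:26285125-26285152 (HIST1H4H, −) and chr6:27139648-27139675 (HIST1H4I, +), all in the 3′ untranslated region. After the stem-loop the annotated exons went on for 1114 bases in HIST1H2AC, 1761 in HIST1H2AG, 1729 in HIST2H2BE, 769 in HIST1H3H, 630 in HIST1H4H, 390 in HIST3H2A, 212 in HIST1H4I and 39 in HIST1H2BD. The 39 bases are those of the HIST1H2BD transcript that holds the stem-loop. The longest annotated 3′ untranslated region of this gene, 384 bases, belongs to a transcript without the stem-loop.

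Over the 73 genes, 35 had an annotated 3′ untranslated region, 30 had a stem-loop in it, and 21 of these had more than 100 bases after it. The form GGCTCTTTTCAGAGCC was found in 17 genes and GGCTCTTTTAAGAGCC in 5. The other 38 genes had no annotated 3′ untranslated region. They include the annotated pseudogenes, for which no coding transcript was used. HIST1H2BK (381 bases, coding only), HIST1H1C (642 bases) and HIST2H2AC (390 bases) are also among them. Reads past the stop codon of these named genes were outside the model used here. The submitters counted on GENCODE 30 by the table's header, and whether its models are the same was not tested.

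The promoters of HIST1H2AC, HIST1H2BK and HIST2H2BE are shown because these genes rose together in the combination, HIST1H2AC with the highest count level. They run from 250 bases before to 50 bases after the start, from RefSeq on GRCh38.p14. The capitals mark the octamer ATTTGCAT, or ATGCAAAT on the other strand, which is the motif of POU-family factors such as OCT1, an activator of H2B genes.
HIST1H2AC, chr6:26123922-26124221 (+): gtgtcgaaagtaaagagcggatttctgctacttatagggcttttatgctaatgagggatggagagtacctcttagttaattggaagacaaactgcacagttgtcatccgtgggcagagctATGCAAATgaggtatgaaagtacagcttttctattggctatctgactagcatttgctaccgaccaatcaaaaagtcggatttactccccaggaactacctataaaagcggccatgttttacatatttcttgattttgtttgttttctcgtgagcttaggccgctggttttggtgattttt
HIST1H2BK, chr6:27146809-27147108 (−): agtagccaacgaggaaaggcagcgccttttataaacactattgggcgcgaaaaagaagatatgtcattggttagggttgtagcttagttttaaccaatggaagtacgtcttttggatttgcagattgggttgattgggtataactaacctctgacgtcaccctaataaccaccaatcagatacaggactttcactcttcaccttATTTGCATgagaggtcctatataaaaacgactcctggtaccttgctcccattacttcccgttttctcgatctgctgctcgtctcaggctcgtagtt
HIST2H2BE, chr1:149886633-149886932 (−): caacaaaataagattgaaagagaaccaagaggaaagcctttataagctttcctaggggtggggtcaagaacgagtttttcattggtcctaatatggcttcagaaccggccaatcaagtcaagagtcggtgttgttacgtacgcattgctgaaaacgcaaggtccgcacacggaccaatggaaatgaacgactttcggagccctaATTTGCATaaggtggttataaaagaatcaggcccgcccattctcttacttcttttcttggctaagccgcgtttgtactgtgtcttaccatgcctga
Promoters were found for 59 of the 73 genes. The octamer on either strand was present in 21 of the 59 (35.6%), against 1.77% of 35116 promoters of all genes in the same window. By class it was in 11 of 16 H2A, 9 of 13 H2B and 1 of 12 H3 promoters, and in 0 of 6 H1 and 0 of 12 H4 promoters. Windows of neighbouring genes overlap, so the octamers lay at 15 separate positions, and the H3 match is HIST1H3D, whose window is the same as that of HIST1H2AD. CCAAT or ATTGG was in 50 of 59 (84.7%, against 34.6% of all promoters), but in 3 of 12 H4 promoters, and TATAAA or TTTATA was in 39 of 59 (66.1%, against 11.5%). HIST1H2BD, HIST1H1C and HIST1H4I, which also rose in the combination, held no octamer in this window. A match is a description of these letters only.

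The OCI-AML3 libraries held 15561248 to 24262960 counts and the NOMO1 libraries 15264862 to 29168628. The labels do not say whether the 3 libraries of a group were separate cultures, so p-values measure the spread between these libraries, which may be technical. Some libraries stood apart. In NOMO1, mitochondrial genes took a mean of 3.17% of counts in DMSO day 6 and 17.8% in DMSO day 3, and in OCI-AML3 they took 12.3% in the combination at day 6, against 3.24% in DMSO day 6. OCI-AML3 selumetinib replicate 1, whose title alone gives day 1, had a lower summed histone level than replicates 2 and 3. NOMO1 selumetinib replicate 1 had 106.1 CPM of RNAs that lack a poly(A) tail and counts in 50 histone genes, against 25.0 and 30.4 CPM and 39 genes each in replicates 2 and 3. NOMO1 VTP-50469 day 3 replicate 1 had 117.2 CPM of such RNAs and 52 genes, against 64.7 and 16.2 CPM and 41 and 44 genes in replicates 2 and 3. SPI1, a myeloid transcription factor, had group means of 322 to 584 CPM (counts scaled to a common library total) in NOMO1 and 174 to 316 in OCI-AML3, whereas MPO, a granule enzyme of early myeloid cells, was at 2786 to 13241 CPM in NOMO1 but at 0.606 to 2.49 in OCI-AML3. The erythroid genes HBA1 and HBB were at or near 0 in both lines, but NOMO1 held RNA of genes that mark other lineages, such as CD3D (4.56 to 37.7 CPM) and CD79B (12.7 to 27.7 CPM). In bulk RNA, a change in the number of cells that make a transcript cannot be told apart from a change in the amount per cell.

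In OCI-AML3 the summed level of the 73 genes was highest when both drugs were given. Summed histone CPM, here over unadjusted library totals, were 574.6, 519.4 and 543.4 in the 3 combination libraries of day 3, against 53.4, 56.0 and 56.7 in DMSO day 3. At day 6 they were 425.6, 530.2 and 479.8 in the combination and 48.9, 56.2 and 55.3 in DMSO. Every combination library lay above every DMSO and single-drug library of the line. RNAs that lack a poly(A) tail summed to 177 ± 72.9 CPM in the combination at day 3 and 226 ± 61.0 in DMSO day 3, and to 271 ± 70.9 in the combination at day 6 and 233 ± 66.7 in DMSO day 6 (SD, n = 3). Selumetinib alone gave 219 ± 52.8 (SD, n = 3), VTP-50469 gave 85.1 ± 8.08 at day 3 and 142 ± 5.04 at day 6, and DMSO gave 53.5 ± 3.98 at day 6 and 55.3 ± 1.73 at day 3. In NOMO1 the range was narrower, with 79.4 ± 2.88 in the combination at day 3, 122 ± 8.04 in the combination at day 6, 83.0 ± 16.6 with selumetinib, 48.7 ± 6.77 and 50.7 ± 2.56 with VTP-50469 at day 3 and day 6, 43.6 ± 1.72 in DMSO day 6 and 59.6 ± 9.54 in DMSO day 3. NOMO1 DMSO day 6 thus held less histone RNA than DMSO day 3, the group with the high mitochondrial share.

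**Figure D1:**
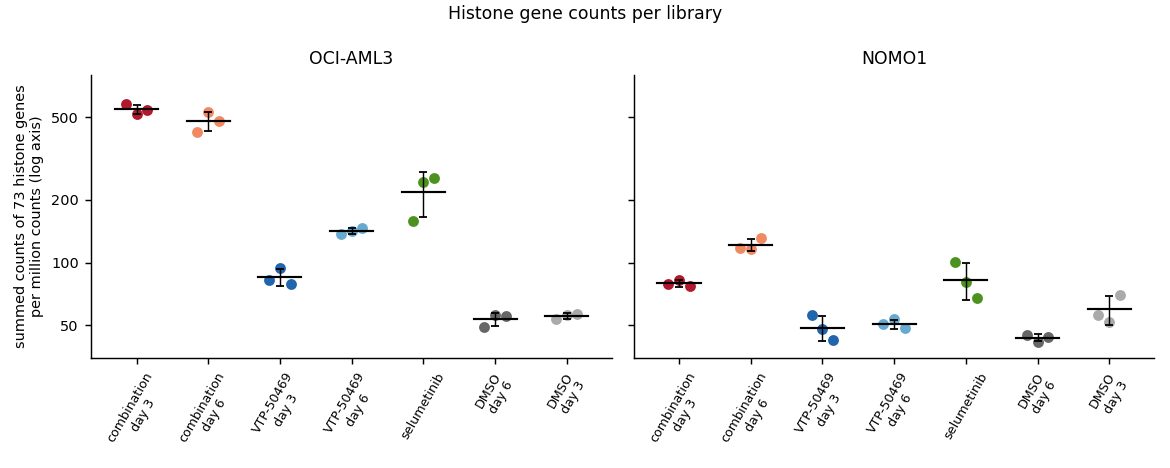
Summed counts of the 73 histone genes, in CPM over unadjusted library totals, in each library (log axis), by group in OCI-AML3 and NOMO1, with points for libraries and lines for the group mean ± SD (n = 3). The OCI-AML3 combination libraries lay between 425.6 and 574.6, and the DMSO libraries of that line between 48.9 and 56.7.

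A small number of genes made up most of this level. HIST1H2AC, an H2A gene, supplied 32.1% of the histone CPM of OCI-AML3 averaged over groups, followed by HIST1H2BK (13.6%), HIST1H2BD (11.7%), HIST3H2A (7.40%), HIST1H1C (7.18%) and HIST2H2BE (6.48%). In NOMO1 the order was HIST1H2BK (15.4%), HIST1H2AC (14.95%), HIST3H2A (13.7%) and HIST1H1C (12.5%). The treated groups weigh most in these shares. In the DMSO groups HIST3H2A had the highest CPM of the genes, with 10.2 at day 6 and 14.2 at day 3 in OCI-AML3, where HIST1H2AC had 6.85 and 8.87, and 9.18 at day 6 and 13.2 at day 3 in NOMO1. Per kilobase of annotated exon, HIST1H2BK had the highest level of these in OCI-AML3, at 172 CPM per kb in the combination at day 6, against 21.2 in DMSO day 6. HIST1H2AC followed with 106 CPM per kb in the combination and 4.10 in DMSO, and HIST1H2BD with 79.1 and 3.43. HIST1H1C, which encodes linker histone H1.2, had 61.5 CPM per kb in the combination and 4.21 in DMSO.

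Of the 73 genes, 33 passed the filter on low counts in OCI-AML3 and 31 in NOMO1, so 40 and 42 were too low to test. A gene that passed only through the group where it was high had to differ, so the counts and medians below describe the genes that passed and do not stand for all 73. A gene is said to have risen or fallen where edgeR's quasi-likelihood test gave a Benjamini-Hochberg adjusted p under 0.05 over all genes of the fit. CPM are scaled by the trimmed mean of M values (TMM), and fold changes are on the log2 scale with their standard errors.

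In OCI-AML3 at day 3, 25 of the 33 tested histone genes rose in the combination against DMSO and 0 fell, whereas 22.3% of all 16384 tested genes rose and 25.8% fell. The 25, among them the annotated pseudogene HIST2H2BD, were 1 of 3 H1, 5 of 6 H2A, 12 of 14 H2B, 2 of 3 H3 and 5 of 7 H4 genes. The median log2 fold change of the 33 was 2.85, or 2.81 with genes at 0 counts in a group set to their bound, against 0.03 for all genes. At day 6, with its own DMSO libraries, 19 rose and 1 fell, while 23.1% of all tested genes rose and 26.5% fell; all 19 had also risen at day 3. The median at day 6 was 2.41. The calls of HIST1H2AE, HIST1H2AI, HIST1H2BH, HIST2H3D, HIST1H4D and HIST1H4K at day 3, and of HIST1H2AE and HIST2H3D at day 6, were lost when 1 library was left out.

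**Figure D2:**
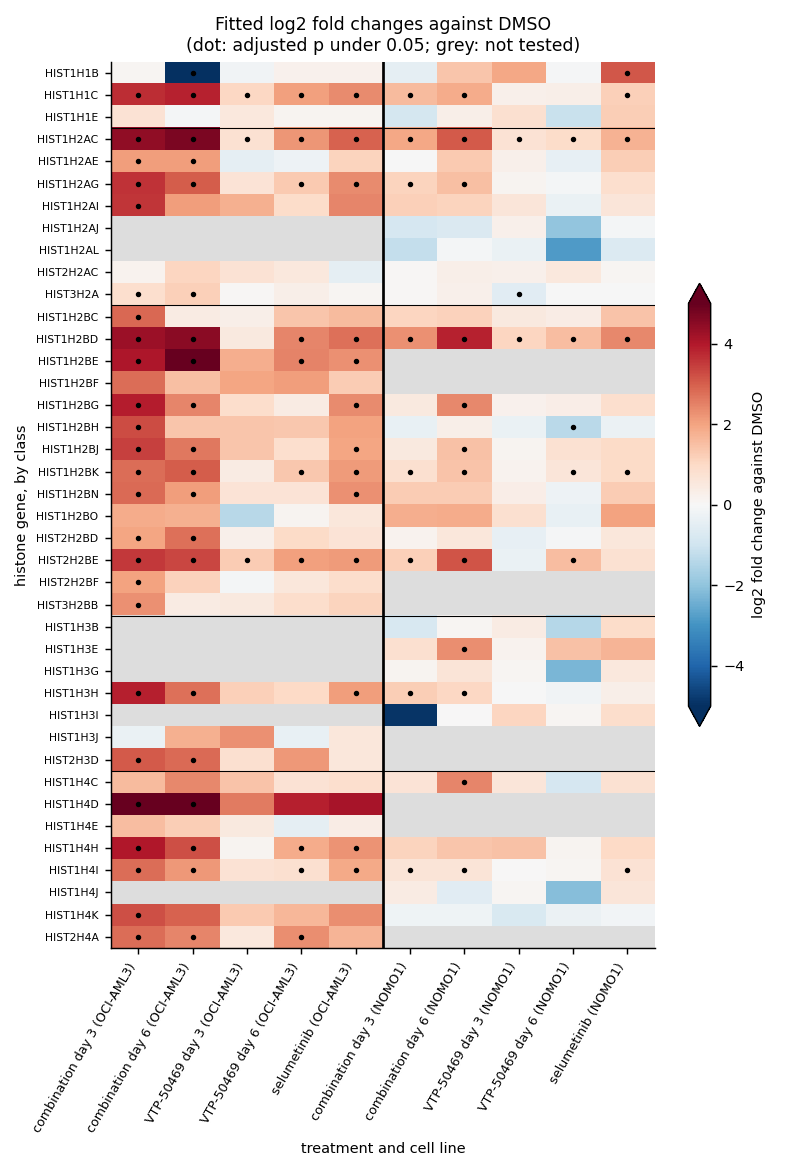
Log2 fold changes of the tested histone genes (rows, by class) in each comparison of a treatment with DMSO (columns) in OCI-AML3 and NOMO1. Colours are limited at 5 in either direction, with dots for an adjusted p under 0.05 and grey for genes not tested. The OCI-AML3 combination columns hold the most dots, 25 at day 3 and 20 at day 6.

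Among H1 genes, HIST1H1C (chr6:26055787-26056428, − strand) had 33.5, 31.7 and 42.6 CPM in the combination at day 3, against 1.73, 3.19 and 3.45 CPM in DMSO. At day 6 it had 28.1, 43.6 and 46.7 CPM in the combination and 2.12, 2.54 and 3.46 CPM in DMSO. The groups did not overlap at either day, and the log2 fold changes were 3.68 ± 0.28 (adjusted p = 1.42e-10) and 3.86 ± 0.29 (adjusted p = 9.2e-11). HIST1H1B, which encodes H1.5, went the other way at day 6 only, with 0 counts over the 3 combination libraries of day 6 and 27 over those of DMSO, at least 7.99-fold lower (edgeR adjusted p = 0.00224). At day 3 this gene did not pass, with 0.362, 0.370 and 0.397 CPM in the combination and 0.054, 0.648 and 0.334 CPM in DMSO, overlapping groups. HIST1H1E, which encodes H1.4, did not pass the test, with log2 fold changes of 0.72 (adjusted p = 0.564) at day 3 and -0.11 (adjusted p = 0.939) at day 6.

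Among H2A genes, HIST1H2AC (chr6:26124145-26139116, + strand, 1668 bases in 2 exons) had 195, 186 and 198 CPM in the combination at day 3, against 7.66, 9.47 and 9.47 CPM in DMSO. At day 6 it had 157, 201 and 173 CPM in the combination, against 6.90, 7.49 and 6.14 CPM in DMSO. All 6 combination libraries lay far above all DMSO libraries, with log2 fold changes of 4.44 ± 0.22 (edgeR adjusted p = 7.83e-12) and 4.69 ± 0.22 (7.07e-12). HIST1H2AG (chr6:27133042-27135291, + strand) had 15.5, 17.1 and 14.996 CPM in the combination at day 3 and 1.73, 1.30 and 0.836 CPM in DMSO, a log2 fold change of 3.62 ± 0.30 (3.82e-11). HIST3H2A (chr1:228456979-228457873, − strand) was already at 14.03, 14.60 and 13.98 CPM in DMSO day 3 and had 24.7, 24.2 and 26.6 CPM in the combination. Its groups did not overlap, but its change was small beside the others, at 0.82 ± 0.14 (1.46e-05) at day 3 and 1.198 ± 0.15 (5.91e-08) at day 6. HIST2H2AC did not pass, at 0.16 (adjusted p = 0.816) at day 3 and 1.07 ± 0.47 (0.0582) at day 6.

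Among H2B genes, HIST1H2BD (chr6:26158146-26171349, + strand) had 64.1, 65.6 and 63.8 CPM in the combination at day 3, against 3.56, 2.84 and 3.57 CPM in DMSO. HIST1H2BK (chr6:27146418-27146798, − strand) had 56.6, 60.4 and 63.3 CPM in the combination and 8.74, 8.67 and 8.80 CPM in DMSO. HIST2H2BE (chr1:149884459-149886652, − strand), in the HIST2 cluster, had 36.6, 25.6 and 31.4 CPM in the combination and 2.59, 3.39 and 2.12 CPM in DMSO. None of these groups overlapped. The log2 fold changes at day 3 were 4.28 ± 0.21 for HIST1H2BD (edgeR adjusted p = 6.48e-15), 2.78 ± 0.15 for HIST1H2BK (3.97e-15) and 3.52 ± 0.24 for HIST2H2BE (5.29e-13). At day 6 they were 4.52 ± 0.22, 3.02 ± 0.15 and 3.34 ± 0.24, with adjusted p of 3.02e-15, 9.47e-16 and 1.51e-12. HIST1H2BJ, at lower counts, rose by 3.42 ± 0.48 at day 3 (6.74e-07) and 2.65 ± 0.47 at day 6 (2.62e-05). HIST1H2BC rose at day 3, with 2.33, 3.70 and 1.04 CPM in the combination and 0.432, 0.249 and 0.279 CPM in DMSO, but at day 6 its log2 fold change was 0.41 (adjusted p = 0.721) and the groups overlapped.

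**Figure D3:**
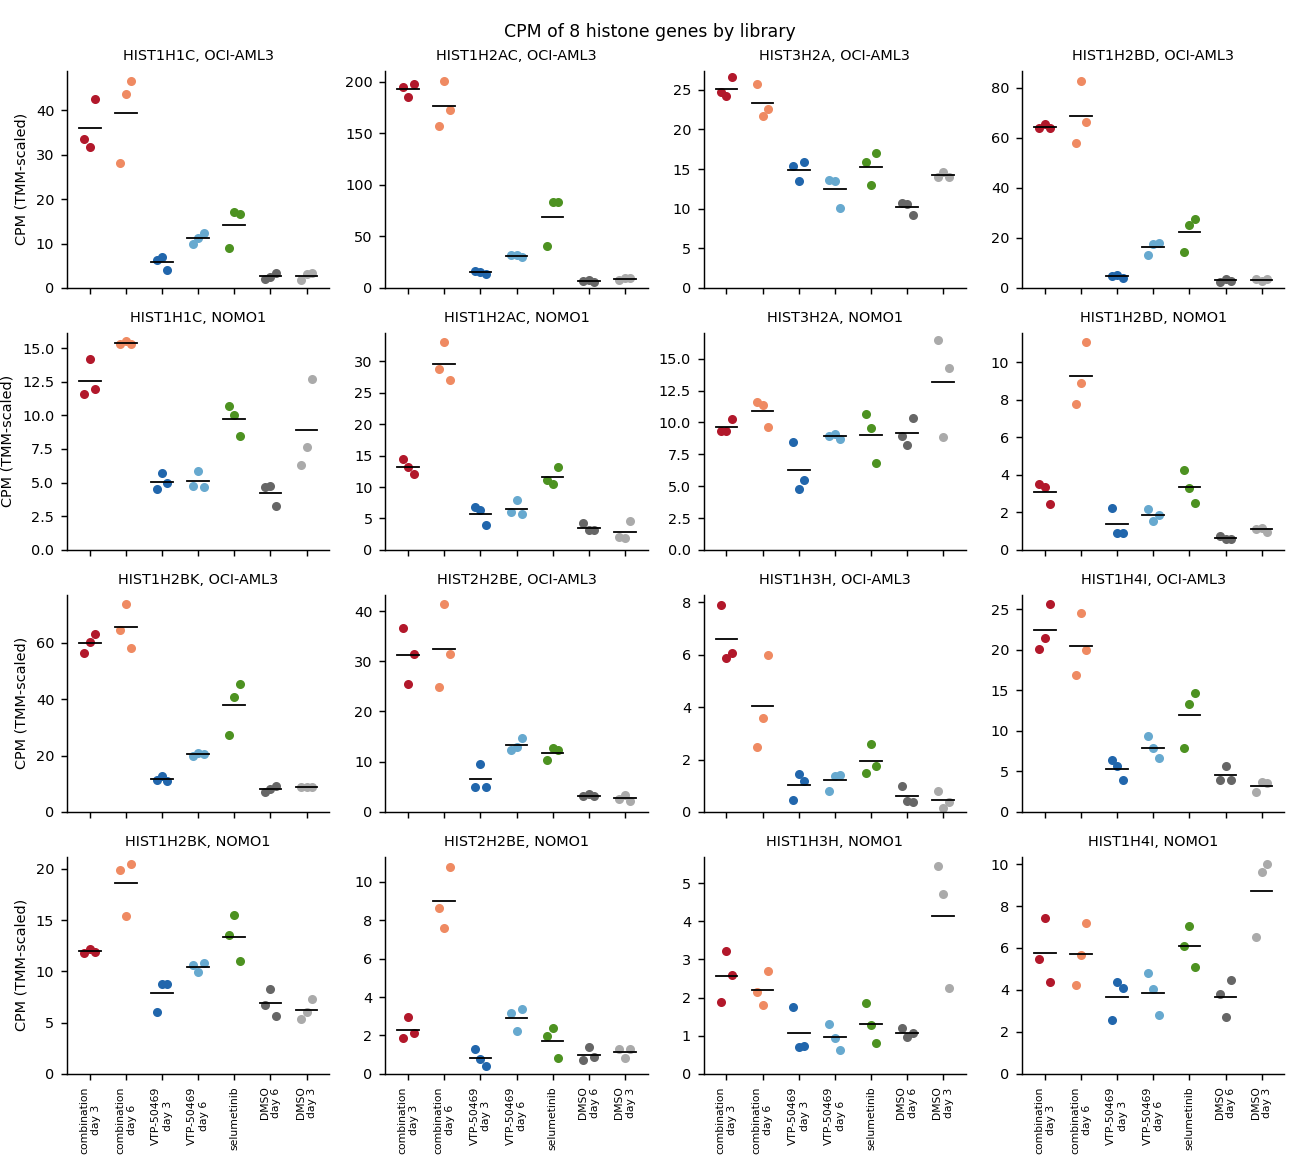
CPM of 8 histone genes in each library (points) with group means (lines), on linear axes that start at 0, by group of OCI-AML3 and NOMO1. HIST1H2AC in OCI-AML3 lay between 157 and 201 CPM in the combination and between 6.14 and 9.47 CPM in DMSO.

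Among H3 genes, HIST1H3H (chr6:27810064-27811300, + strand) had 7.91, 5.86 and 6.06 CPM in the combination at day 3, against 0.809, 0.149 and 0.390 CPM in DMSO, a log2 fold change of 3.87 ± 0.53 (edgeR adjusted p = 4.92e-07). Among H4 genes, HIST1H4H (chr6:26277609-26285638, − strand) had 8.48, 5.81 and 6.46 CPM in the combination and 0.324, 0.299 and 0.668 CPM in DMSO, and rose by 3.995 ± 0.50 (7.46e-08). HIST1H4I (chr6:27138588-27139881, + strand) had 20.1, 21.4 and 25.6 CPM in the combination, against 2.43, 3.69 and 3.51 CPM in DMSO, and rose by 2.80 ± 0.24 (7.51e-11). All 3 genes rose at day 6 too, by 2.75 ± 0.52, 3.21 ± 0.49 and 2.18 ± 0.24, without overlap of the groups. HIST1H4D had 16 counts over the combination libraries of day 3 and 0 over DMSO, at least 5.16-fold higher, and 66 against 0 at day 6, at least 24.8-fold higher. This gene passed the filter only through its level in the combination libraries of day 6. It therefore had to differ from DMSO at day 6, and no p-value is given for that comparison. HIST1H4C did not pass at either day (adjusted p = 0.335 and 0.106).

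Selumetinib alone raised 13 of the 33 tested genes in OCI-AML3 and lowered 0, while 11.7% of all tested genes rose and 15.6% fell. HIST1H2AC had 40.7, 83.2 and 83.7 CPM with selumetinib, against 7.66, 9.47 and 9.47 CPM in DMSO day 3, a log2 fold change of 2.96 ± 0.21 (edgeR adjusted p = 9.58e-09). Replicate 1 lay between DMSO and the other 2 libraries, and the same held for HIST1H2BD (14.5, 25.1 and 27.5 CPM, against 3.56, 2.84 and 3.57 CPM), which rose by 2.76 ± 0.21 (1.82e-10). HIST1H2BK rose by 2.12 ± 0.15 (9.74e-12), HIST1H1C by 2.35 ± 0.28 (8.82e-07), HIST2H2BE by 2.12 ± 0.24 (6.59e-08) and HIST1H4I by 1.89 ± 0.24 (5.44e-07). HIST3H2A did not pass, at 0.11 (adjusted p = 0.658). The calls of HIST1H2BE and HIST1H2BG were lost when 1 library was left out, and the time of treatment is uncertain.

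VTP-50469 alone raised 3 of the 33 genes at day 3, when 6.49% of all tested genes rose and 4.42% fell, and 10 at day 6, when 18.8% rose and 16% fell, and it lowered 0 at either day. At day 6 HIST1H2BD had 13.3, 17.4 and 18.0 CPM with VTP-50469 and 2.42, 3.63 and 2.91 CPM in DMSO, a log2 fold change of 2.44 ± 0.22 (edgeR adjusted p = 1.27e-09). HIST1H2AC rose by 2.20 ± 0.22 (3.92e-07), HIST1H1C by 2.05 ± 0.29 (5.07e-06), HIST2H2BE by 2.05 ± 0.24 (5.3e-08) and HIST1H2BK by 1.34 ± 0.15 (3.33e-08), all without overlap of the groups. HIST3H2A did not pass, at 0.29 (0.142). At day 3, HIST2H2BE had 4.90 to 9.48 CPM with VTP-50469, with replicate 2 highest, and 2.12 to 3.39 CPM in DMSO, and rose by 1.25 ± 0.25 (0.00068). The day 3 call of HIST1H1C (1.05 ± 0.30, 0.0209) was lost without DMSO replicate 1 or VTP-50469 replicate 1 or 2, and that of HIST1H2AC (0.76 ± 0.22, 0.0325) without any of 5 of the 6 libraries. At day 6 the call of HIST1H4I was lost without DMSO replicate 3 or VTP-50469 replicate 1, and those of HIST1H2BE and HIST2H4A without DMSO replicate 2 or 3.

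Against VTP-50469 of the same day, the combination raised 20 of the 33 genes at day 3 (18.2% of all tested genes rose and 24% fell) and raised 17 and lowered 1 at day 6 (16.7% rose and 24.6% fell). HIST1H2AC had 195, 186 and 198 CPM in the combination at day 3 and 16.1, 15.5 and 13.5 CPM with VTP-50469, a log2 fold change of 3.68 ± 0.20 (edgeR adjusted p = 7.34e-11). HIST1H2BD differed by 3.81 ± 0.20 (4.65e-14), HIST1H4H by 3.85 ± 0.49 (1.48e-07) and HIST1H2BK by 2.35 ± 0.14 (9.9e-14). At day 6 the differences were smaller in value, 2.497 ± 0.19 for HIST1H2AC, 2.09 ± 0.18 for HIST1H2BD and 1.68 ± 0.14 for HIST1H2BK, and the change between days was not tested. HIST1H1B was the gene that fell at day 6, with 0 counts in the combination and 33 with VTP-50469, at least 9.17-fold lower (0.00205).

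The interaction of the drugs at day 3 in OCI-AML3, the excess of the combination over the sum of the single-drug log2 changes, passed for 2 of 33 genes, both positive (2.67% of all tested genes were positive and 6.27% negative). It was 1.05 ± 0.29 for HIST1H2BD (edgeR adjusted p = 0.0204), a call lost without DMSO replicate 1 or 3 or VTP-50469 replicate 3, and 0.65 ± 0.20 for HIST3H2A (0.0394), a call lost without any of 11 libraries. The estimate takes selumetinib of uncertain time as a day 3 treatment. Between DMSO day 6 and DMSO day 3, 0 of 33 genes passed in edgeR and 0 in DESeq2, and 1 had an unadjusted p under 0.05, beside 0% of all tested genes in either direction.

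In NOMO1 the combination at day 6 raised 12 of 31 tested histone genes against DMSO day 6 and lowered 0, while 27.3% of all 16561 tested genes rose and 28.2% fell. HIST1H2AC had 28.8, 33.0 and 27.0 CPM in the combination and 4.29, 3.11 and 3.11 CPM in DMSO, without overlap, a log2 fold change of 3.08 ± 0.24 (edgeR adjusted p = 3.39e-11). HIST1H2BD had 7.80, 8.87 and 11.1 CPM in the combination, against 0.737, 0.596 and 0.576 CPM in DMSO, and rose by 3.85 ± 0.34 (1.32e-10). HIST2H2BE had 8.66, 7.60 and 10.8 CPM in the combination and 0.737, 1.39 and 0.883 CPM in DMSO, and rose by 3.14 ± 0.37 (4.18e-08). For these 3 genes every combination library was above every DMSO library. HIST1H1C rose by 1.86 ± 0.20 (9.77e-09) and HIST1H2BK by 1.43 ± 0.17 (4.63e-08), and HIST1H2AG by 1.49 ± 0.40 (0.00248). HIST3H2A had 11.6, 11.4 and 9.60 CPM in the combination and 8.97, 8.24 and 10.3 CPM in DMSO, and its groups overlapped. The calls of HIST1H2BG, HIST1H2BJ, HIST1H3H, HIST1H4C and HIST1H4I were lost when 1 library was left out, and 8 genes were called without DMSO day 6 replicate 2.

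At day 3, against the same DMSO day 6 libraries, 8 of 31 genes rose in the combination and 0 fell, beside 20.9% and 24.4% of all tested genes. HIST1H2AC had 14.5, 13.2 and 12.1 CPM in the combination, a log2 fold change of 1.93 ± 0.24 (edgeR adjusted p = 2.73e-07), HIST1H2BD 3.49, 3.34 and 2.46 CPM (2.28 ± 0.34, 2.93e-06) and HIST1H1C 11.6, 14.2 and 11.9 CPM, against 4.68, 4.73 and 3.26 CPM in DMSO day 6 (1.57 ± 0.20, 3.75e-07). HIST1H2BK rose by 0.79 ± 0.17 (0.000408). The calls of HIST1H2AG, HIST2H2BE, HIST1H3H and HIST1H4I were lost when 1 library was left out, and 4 genes were called without combination day 3 replicate 2. With DMSO day 3 as control HIST1H4I had the opposite sign, at -0.59. Days and treatments cannot be told apart in the comparisons of day 3 with DMSO day 6.

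Selumetinib alone raised 6 of 31 genes in NOMO1 and lowered 0, beside 13.1% and 19% of all tested genes. HIST1H2AC had 11.1, 10.5 and 13.1 CPM with selumetinib and 4.29, 3.11 and 3.11 CPM in DMSO day 6, without overlap, a log2 fold change of 1.73 ± 0.24 (edgeR adjusted p = 4.23e-06). HIST1H2BD rose by 2.40 ± 0.34 (3.9e-06), HIST1H1C by 1.1999 ± 0.21 (5.32e-05) and HIST1H2BK by 0.95 ± 0.17 (0.000106). HIST1H1B had 1.94, 0.121 and 0.337 CPM with selumetinib and 0.217, 0.0331 and 0.0384 CPM in DMSO, overlapping groups whose call (3.09 ± 1.16, 0.0432) rested on replicate 1, being 1.28 without it. That library also stood apart in RNA without a poly(A) tail, and the part of this in the call was not tested. The call of HIST1H4I (0.73, 0.0371) was lost without selumetinib replicate 1 or 2 or DMSO replicate 1 or 2. With DMSO day 3 as control, HIST1H1B and HIST1H4I had the opposite sign, at -0.49 and -0.52.

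VTP-50469 alone raised 4 and lowered 1 of 31 genes in NOMO1 at day 6, shares below those of all tested genes, of which 23.7% rose and 25.1% fell. HIST1H2BD had 2.16, 1.52 and 1.85 CPM with VTP-50469 and 0.737, 0.596 and 0.576 CPM in DMSO, a log2 fold change of 1.54 ± 0.34 (edgeR adjusted p = 0.000501). HIST2H2BE rose by 1.52 ± 0.37 (0.00121), HIST1H2AC by 0.91 ± 0.24 (0.00284) and HIST1H2BK by 0.60 ± 0.17 (0.00495, lost without DMSO replicate 3). HIST1H2BH fell by 1.36 on the log2 scale (0.0252), a call lost without DMSO replicate 3 or VTP-50469 replicate 1 or 2. At day 3, 2 genes rose and 1 fell, beside 12.7% and 14.4% of all tested genes, and the calls of HIST1H2AC, HIST1H2BD and HIST3H2A were each lost when 1 library was left out.

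Against VTP-50469 of the same day, the combination in NOMO1 raised 7 and lowered 1 of the 31 genes at day 3 (15.9% of all tested genes rose and 19.2% fell) and raised 11 and lowered 0 at day 6 (12.4% and 15.2%). At day 6, HIST1H2AC had 28.8, 33.0 and 27.0 CPM in the combination and 6.03, 7.98 and 5.65 CPM with VTP-50469, a log2 fold change of 2.17 ± 0.23 (edgeR adjusted p = 6.25e-08). HIST1H1C differed by 1.59 ± 0.20 (8.38e-07), HIST1H2BD by 2.32 ± 0.30 (1.23e-06) and HIST2H2BE by 1.62 ± 0.34 (0.000663), and 7 genes were called without VTP-50469 day 6 replicate 2. At day 3, HIST1H1C differed by 1.31 ± 0.20 (9.45e-06) and HIST1H2AC by 1.22 ± 0.23 (0.000157). HIST1H3I had 0 counts in the combination at day 3 and 21 with VTP-50469, at least 7.83-fold lower (0.0404). Its level with VTP-50469 was 0.799 CPM in replicate 1 and 0.0842 and 0.128 CPM in replicates 2 and 3. Replicate 1 also stood apart in RNA without a poly(A) tail, and the part of this in the call was not tested. The interaction at day 3 passed for 1 gene, HIST1H1B, at -5.45 (0.0319), beside 5.97% of all tested genes negative and 7.91% positive, and this call was lost without any of 7 libraries.

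The choice of DMSO group mattered in NOMO1. In DMSO day 6 against DMSO day 3, 0 of 31 histone genes rose and 9 fell, while 28.8% of all tested genes rose and 22.3% fell. HIST1H3H had 1.21, 0.960 and 1.08 CPM in DMSO day 6 and 5.46, 4.71 and 2.26 CPM in DMSO day 3, and fell by 1.94 on the log2 scale (edgeR adjusted p = 0.000224). HIST1H4I had 3.81, 2.71 and 4.46 CPM in DMSO day 6 and 6.54, 9.61 and 9.99 CPM in DMSO day 3 (-1.25 ± 0.26, 0.000251), and HIST2H2AC 0.520, 1.06 and 0.922 CPM against 3.47, 2.77 and 1.83 CPM (-1.68 ± 0.44, 0.00243). HIST1H1C fell by 1.07 (9.06e-05). With library totals in place of TMM, which put the median of all genes at 0.37, 2 histone genes rose and 6 fell. The shares of all tested genes that rose and fell with library totals are not given here. The calls of HIST1H1B, HIST3H2A, HIST1H2BJ, HIST1H4C and HIST1H4H were lost when 1 library was left out, and 4 genes were called without DMSO day 6 replicate 2. HIST1H2AC was not among the 9, with 4.29, 3.11 and 3.11 CPM in DMSO day 6 and 2.03, 1.93 and 4.67 CPM in DMSO day 3. The mitochondrial share of 3.17% in DMSO day 6 and 17.8% in DMSO day 3 moved with these values. So did RNAs that lack a poly(A) tail, whose sum was 32.0 ± 4.78 CPM in DMSO day 6 and 107.7 ± 82.7 CPM in DMSO day 3 (SD, n = 3), and both of those tested fell (RN7SL1 by 2.17 and RN7SL2 by 2.00 on the log2 scale, adjusted p = 0.0226 and 0.0246). The part of either in the histone values was not tested.

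Between the lines at DMSO day 6, 5 of 41 tested histone genes were higher and 5 lower in NOMO1 than in OCI-AML3, beside 32.7% and 28.6% of all 18707 tested genes. HIST1H1C was higher in NOMO1 by 1.02 ± 0.28 (edgeR adjusted p = 0.00139), and HIST1H2BD and HIST2H2BE were lower by -1.85 ± 0.32 (2.2e-06) and -1.27 ± 0.33 (0.00103). The call of HIST1H2AC (-0.59, 0.0483) was lost without any of 5 of the 6 libraries. HIST3H2BB had 1 count in NOMO1 and 34 in OCI-AML3, 39.4-fold lower with a 95% exact counting interval of 6.60 to 1600, and HIST1H3G had 22 counts in NOMO1 and 0 in OCI-AML3, at least 6.33-fold higher. HIST1H3G had 0 counts in all OCI-AML3 libraries and passed the filter only through NOMO1. HIST3H2BB passed in the fit of OCI-AML3 alone but not in that of NOMO1 alone. The filter favoured these differences in advance, and both genes are among those counted.

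The drug effects themselves were tested for a difference between the lines. The effect of the combination at day 6 was lower in NOMO1 for 7 of 41 genes and higher for 1, while 16.3% and 18.6% of all tested genes were lower and higher. HIST1H2BK differed by -1.53 ± 0.23 (edgeR adjusted p = 4.85e-07), HIST1H1C by -1.94 ± 0.36 (2.2e-05), HIST1H2AC by -1.55 ± 0.33 (0.000278), HIST1H4I by -1.49 ± 0.37 (0.00136), HIST3H2A by -0.89 ± 0.26 (0.00521) and HIST1H2AG by -1.47 ± 0.51 (0.0201). HIST1H2BD and HIST2H2BE, whose log2 changes were 3.85 and 3.14 in NOMO1 and 4.52 and 3.34 in OCI-AML3, did not pass. The gene higher in effect was HIST1H1B, which had 0 counts in the OCI-AML3 combination at day 6 (adjusted p = 0.00473). The effect of VTP-50469 at day 6 was lower in NOMO1 for 5 genes and higher for 0 (16.8% and 16.6% of all tested genes), with HIST1H1C at -1.70 ± 0.37 (0.00023) and HIST1H2AC at -1.21 ± 0.34 (0.00527). That of selumetinib was lower for 4 and higher for 0 (5.24% and 4.88%), with HIST1H2BK at -1.13 ± 0.23 (0.000465). For VTP-50469, 2 genes were called without NOMO1 DMSO day 6 replicate 2, and for selumetinib 1 gene without OCI-AML3 selumetinib replicate 2. The controls were DMSO day 6 in both lines, except for selumetinib in OCI-AML3.

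Many H2A and H2B genes lie head to head and share the DNA between their starts, and 12 such pairs had starts within 1000 bases of each other. In OCI-AML3 at day 6, both genes of 2 pairs rose in the combination (HIST1H2BG with HIST1H2AE, and HIST1H2BJ with HIST1H2AG), 1 gene rose in 5 pairs and neither in 5. Of all tested genes 23.1% rose in this comparison, and whether pairs rise together was not tested. HIST1H2AC had 106 CPM per kb in the combination and 4.10 in DMSO day 6, while its partner HIST1H2BC, 219 bases away, had 0.637 and 0.477. HIST1H2BK had 172 CPM per kb in the combination and 21.2 in DMSO, and its partner HIST1H2AH, 331 bases away, had 1.11 and 0.576 and was too low to test. By contrast HIST1H2AG had 5.23 CPM per kb in the combination and 0.645 in DMSO, and HIST1H2BJ, 292 bases away, had 3.96 and 0.624. HIST2H2BE had 14.8 CPM per kb in the combination and 1.47 in DMSO, and HIST2H2AC, 323 bases away, 10.9 and 5.17. Both genes were tested in 5 pairs, 1 gene in 5 and neither in 2, so a low partner is often an untested one. In NOMO1 at day 6 both genes rose in 1 pair and 1 gene in 4, while 27.3% of all tested genes rose.

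**Figure D4:**
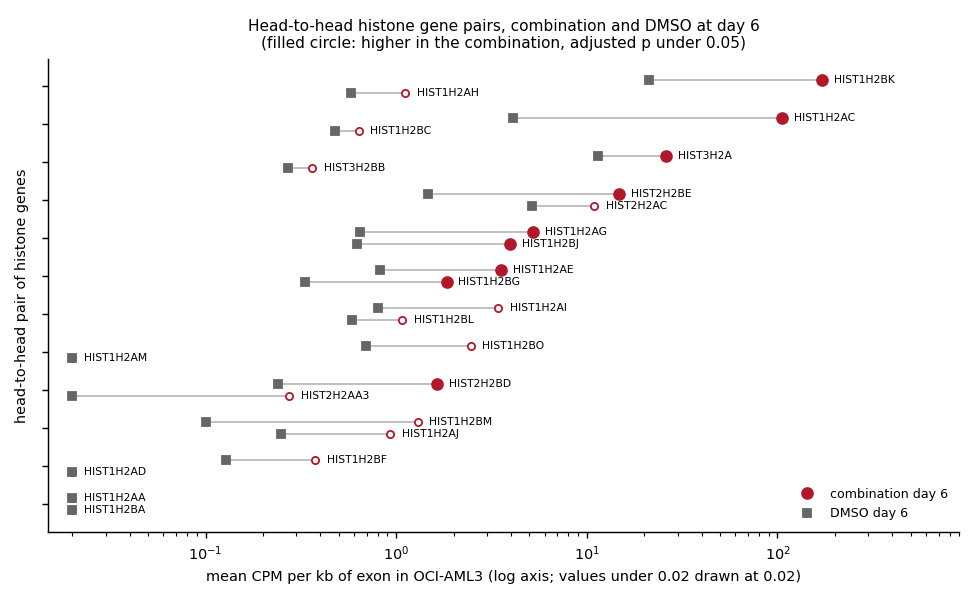
Mean CPM per kb of both genes of each head-to-head pair in the combination at day 6 and in DMSO day 6 of OCI-AML3, on a log axis on which values under 0.02 are drawn at 0.02; filled circles mark genes higher in the combination with an adjusted p under 0.05. In OCI-AML3, HIST1H2AC reached 106 CPM per kb and its neighbour HIST1H2BC 0.637.

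The gene models of the genes that rose were compared with those of all genes that passed the filter and of genes that did not, as a description. In OCI-AML3, 19 of the 25 genes that rose in the combination at day 3 had an annotated 3′ untranslated region, 18 had a stem-loop in it and 15 had more than 100 bases after the stem-loop. Of all 33 genes that passed the filter, 23 had an annotated 3′ untranslated region, 20 a stem-loop and 17 more than 100 bases after it. Of the 40 genes that did not pass the filter, 12 had an annotated 3′ untranslated region, 10 a stem-loop and 4 more than 100 bases after it. The median exon length was 950 bases for the 33 genes that passed and 411 bases for the 40 that did not. Longer models collect more reads at the same level, so passing the filter and length go together. In NOMO1, 10 of the 12 genes that rose at day 6 had an annotated 3′ untranslated region and 6 had more than 100 bases after the stem-loop. Among all 31 genes that passed there, the numbers were 20 and 12. HIST1H2BK and HIST1H1C rose in both lines with no annotated 3′ untranslated region in the models used.

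Genes that act in S phase moved the other way from the histone transcripts in several comparisons. All 18 listed S-phase genes fell in OCI-AML3 with the combination at day 3 (median log2 fold change -1.67) and day 6 (-1.43) and with selumetinib (-0.95). Of all tested genes 25.8%, 26.5% and 15.6% fell in these comparisons. MCM6, a subunit of the replicative helicase, was at -2.37 in the combination at day 3 (edgeR adjusted p = 5.29e-16). With VTP-50469 alone in OCI-AML3, 3 S-phase genes rose and 0 fell at day 3 and 4 rose and 2 fell at day 6, where 10 histone genes rose. Of all tested genes 6.49% rose and 4.42% fell at day 3, and 18.8% rose and 16% fell at day 6. In NOMO1, 18 S-phase genes fell with the combination at day 6 (-1.06), with VTP-50469 at day 6 (-0.81) and with selumetinib (-0.66), and 13 rose and 2 fell in DMSO day 6 against DMSO day 3 (0.64). Of all tested genes 28.2%, 25.1% and 19% fell with these treatments, and 28.8% rose and 22.3% fell between the DMSO days. The part of the S-phase genes' change in the histone levels was not tested.

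Of 20 genes for histone mRNA processing and transcription, 0 rose and 15 fell in OCI-AML3 with the combination at day 3, and 0 rose and 14 fell at day 6. Of all tested genes 22.3% rose and 25.8% fell at day 3, and 23.1% rose and 26.5% fell at day 6. SLBP, which binds the stem-loop, was at -1.02 ± 0.07 at day 3 (edgeR adjusted p = 9.58e-13), -0.81 ± 0.07 at day 6 (1.38e-10) and -0.57 ± 0.07 with selumetinib (4.01e-07). CCNE1, the cyclin whose kinase activates histone transcription through NPAT, was at -1.93 ± 0.17 at day 3 (8.48e-11). In NOMO1, 17 of the 20 fell with the combination at day 3, and 1 rose and 14 fell at day 6. Of all tested genes 20.9% rose and 24.4% fell there at day 3, and 27.3% rose and 28.2% fell at day 6. Replacement histone variants, listed as histone genes outside the rule with polyadenylated mRNA, were mixed. Of 10 tested in OCI-AML3, 4 rose and 1 fell with the combination at day 3, H1F0 and H1FX by 0.65 and 0.75, and H2AFZ at -1.09. Among 15 histone chaperones 1 rose and 9 fell there, with CHAF1A, of the replication-coupled assembly factor, at -1.56. RNAs that lack a poly(A) tail were listed as a measure of RNA taken in without selection. Of 14 listed, 2 could be tested, and 0 were called in the drug comparisons within either line. Both fell in NOMO1 DMSO day 6 against DMSO day 3 (median -2.09), and both were lower in NOMO1 than in OCI-AML3 at DMSO day 6 (median -2.59). Of all tested genes 22.3% fell in the first comparison and 28.6% were lower in the second. The group means of the summed RNAs that lack a poly(A) tail were 177 to 271 CPM in OCI-AML3, while NOMO1 had 22.3 to 108.

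**Figure D5:**
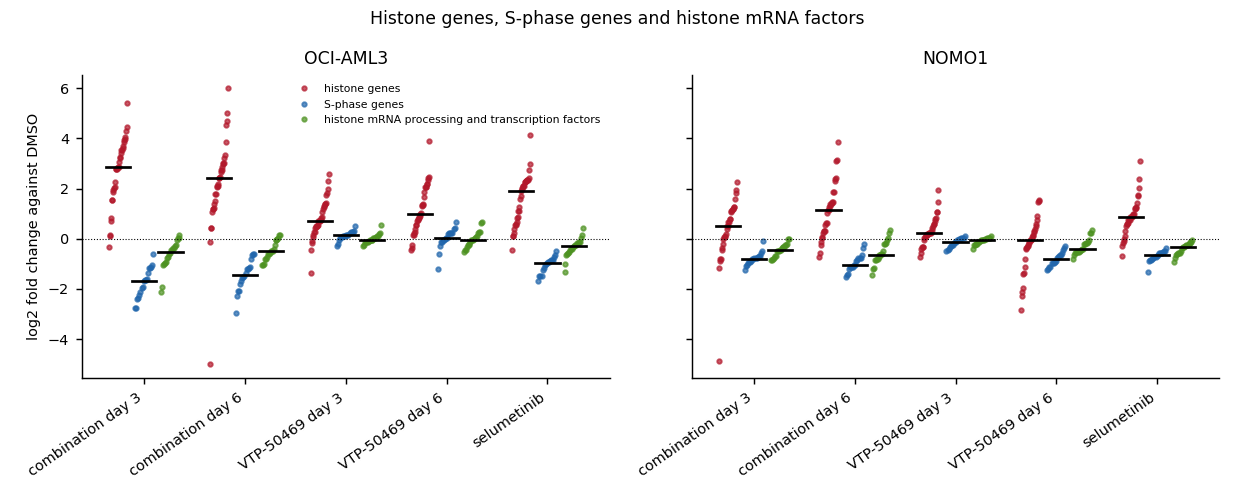
Log2 fold changes of tested histone genes, S-phase genes and genes for histone mRNA processing and transcription in the treatments against DMSO of both lines. Points are genes and lines are medians, with values beyond the axis drawn at its ends (6 at the top). In OCI-AML3 with the combination at day 3 the histone median was 2.85 and the S-phase median -1.67.

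Levels of ITGAM and LYZ, picked from 6 listed myeloid genes, are given beside these results. In OCI-AML3, ITGAM, an integrin of mature myeloid cells, averaged 33.1 ± 4.57 CPM in the combination at day 6 and 1.71 ± 0.35 CPM in DMSO day 6 (SD, n = 3 each), and LYZ, which encodes lysozyme, 1077 ± 79.8 and 109 ± 6.74 CPM. In NOMO1, ITGAM averaged 642 ± 16.9 CPM in the combination at day 6 and 642 ± 34.7 CPM in DMSO day 6, and LYZ 4123 ± 86.3 and 1500 ± 18.6 CPM. Of the other listed genes, SPI1 and MPO are given above. Over unadjusted library totals, group means of CD33 ran from 43.6 to 62.9 CPM in OCI-AML3 and 26.0 to 63.2 CPM in NOMO1. Those of CSF3R ran from 37.5 to 163 CPM and from 355 to 1063 CPM. Their values by treatment are not given, so ITGAM and LYZ do not stand for the list. The part of maturation in the histone levels was not tested.

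Reads of near-identical copies can limit single-gene values. Shared stretches of 100 bases were searched only among transcripts of genes whose symbol begins with HIST. Of the 73 genes, 24 shared at least 1 stretch with another such gene. Over 50% of the stretches were shared in 14, among them HIST2H4A (94.9%), HIST2H2BD (69.1%) and HIST2H3D (51.3%). The rises of these 3 named genes in the OCI-AML3 combination are therefore uncertain. HIST1H2AC, HIST1H2AG, HIST3H2A, HIST1H2BC, HIST1H2BD, HIST1H2BJ, HIST1H2BK, HIST1H1C, HIST1H3H, HIST1H4H and HIST1H4I shared 0% and HIST2H2BE 2.63%. Sharing with genes of other names was not searched, so 0% does not show that a sequence is unique. Reads carried no strand, and 16 of the genes overlap another gene, such as HIST1H2BE with an antisense transcript, so reads of these could be shared.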

How the data were processed

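Polyadenylated RNA was sequenced as unstranded paired-end libraries, per the labels' protocols. The submitters' processing notes list hg38 and, among other tools, Subread 2.0.6 (featureCounts), STAR 2.11a and DESeq2 1.44.0. The authors deposited whole-number read counts per gene for 42 libraries, not normalized. Handling of reads that match several places is not given in the sources used here. Of the table's columns, 3 that match no labelled library were not used, and 1 gene lacking a value was dropped. Gene positions came from GENCODE 29 on GRCh38 (58595 genes matched, all 73 histone genes included).

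Each line was fitted alone (7 groups, 21 libraries) with edgeR 4.0.16 under R 4.3.3, using filterByExpr, TMM scaling and robust quasi-likelihood tests, with Benjamini-Hochberg adjustment over all genes at 0.05. Differences between the lines came from a fit of all libraries. There were 22 comparisons. Standard errors were taken from the F statistic. Folds against 0 counts took 3 counts per group as the floor, and ratios to 1 to 3 counts have exact 95% intervals; both cover counting error only. Where DMSO groups are shared, comparisons are not independent. Tests were checked on simulated data.

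The members, lists and rules were chosen with earlier results of these data known. Genes named are 15 followed members, per comparison the 4 called members of smallest adjusted p and the 4 of largest change with at least 5 CPM in 1 group, the 10 members of highest mean CPM per line, and the 3 called genes of smallest adjusted p per companion list, of which not all are printed; others were named after their values were seen. Alternatives were DESeq2 1.42.0, other scaling and filters, fits of the compared groups only, a replicate block, the other DMSO day, and leaving out each library.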

Additional observations from a re-analysis of the deposited data

Results flagged for a closer look

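Effects that differed between the lines by the edgeR test of the difference (NOMO1 minus OCI-AML3, adjusted p under 0.05) are given here as log2 values. The VTP-50469 effect at day 6 differed for 5 of 41 tested histone genes (12.2%, beside 16.8% of all tested genes lower and 16.6% higher in effect), among them HIST1H1C (-1.70), HIST1H2AC (-1.21), HIST1H2AG (-1.35) and HIST1H2BK (-0.67). The selumetinib effect differed for 4 (9.76%, beside 5.24% lower and 4.88% higher), HIST1H1C (-1.12), HIST1H2AC (-1.19), HIST1H2BK (-1.13) and HIST1H4I (-1.13). The combination effect at day 6 differed for 8 (19.5%, beside 16.3% lower and 18.6% higher), among them HIST1H1C (-1.94), HIST1H2AC (-1.55), HIST1H2BK (-1.53), HIST2H2BD (-2.14) and HIST1H4I (-1.49). With single libraries left out the calls of HIST1H2AG and HIST1H2BK for VTP-50469, of HIST1H1C, HIST1H2AC and HIST1H4I for selumetinib, and of HIST2H2BD for the combination were lost at least in 1 case each. HIST2H2BD, an annotated pseudogene, shares 69.1% of its 100-base stretches with another gene whose symbol begins with HIST.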

How the results depend on the processing

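The number of histone genes called stayed within 1.5 times under 296 combinations of comparison and alternative and moved beyond that under 50. Of the named genes, 1739 values kept their direction and side of the threshold, 160 lost the call and 3 reversed. The shares of all tested genes called under each alternative, or with a library left out, are not given here. A moved count is therefore not a result about the histone genes alone. OCI-AML3 VTP-50469 at day 3 (3 genes) gave 5 with DESeq2, 6 with library totals and 5 with DMSO day 6 as control. The OCI-AML3 interaction (2) gave 1 without a filter and 0 with DMSO day 6. NOMO1 VTP-50469 at day 3 (3) gave 0 with only the compared groups in the fit and 6 with DMSO day 3, of which 1 rose and 5 fell. The NOMO1 interaction (1) gave 0 with DESeq2, 2 without a filter, 0 with only the compared groups and 4 with DMSO day 3. Replicate numbers did not pair the libraries (correlations of deviations lay between -0.069 and 0.033 for OCI-AML3, and for NOMO1 between -0.029 and 0.012); with the replicate block the NOMO1 interaction was called for 0 genes, and the other counts stayed within 1.5 times. With DMSO day 3 as control in NOMO1, HIST1H1B with selumetinib was at -0.49 (3.09 with DMSO day 6), HIST1H4I with selumetinib at -0.52 (0.73) and HIST1H4I with the combination at day 3 at -0.59 (0.66); the cause was not tested.

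With single libraries left out, the counts called ran from 1 to 4 for OCI-AML3 VTP-50469 at day 3 and from 0 to 2 for the OCI-AML3 interaction. In NOMO1 they ran from 1 to 2 for VTP-50469 at day 3, 3 to 5 at day 6, 4 to 7 for the combination at day 3, 7 to 10 for the combination against VTP-50469 at day 6, 0 to 1 for the interaction and 4 to 9 for DMSO day 6 against day 3. For line differences of VTP-50469 they ran from 2 to 5. In the OCI-AML3 combination the counts ran from 21 to 23 at day 3 and from 21 to 22 at day 6.

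Without HIST1H2AC the summed histone level of OCI-AML3 was 340.4 CPM in the combination at day 3, 307.2 at day 6, 149.0 with selumetinib, 69.95 and 110.7 with VTP-50469 at day 3 and day 6, and 46.7 and 46.8 in DMSO at day 3 and day 6. Without its own most abundant gene, NOMO1 had 67.1 (day 3) and 103.5 (day 6) with the combination, 40.5 (day 3) and 40.2 (day 6) with VTP-50469 and 36.4 in DMSO day 6. With mitochondrial counts left out of the total, the OCI-AML3 combination had 581.7 (day 3) and 546.6 (day 6), VTP-50469 at day 6 had 148.4, and NOMO1 had 84.8 in the combination at day 3 and 72.4 in DMSO day 3. Too few counts for a test were found for 40 histone genes of OCI-AML3, 14 of them with 0 counts in the line, and for 42 of NOMO1, 12 of them with 0; whether depth or the counting of shared reads limits them was not tested.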
